A study of Mus musculus with 4 samples.

Results

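The genes described here are Myc, its relatives and the partners that dimerize through Max, in mouse haploid embryonic stem cells (haESCs). They were taken as the rows whose symbol equals one of 10 names, and all 10 were found among the 23235 gene symbols. These are the Myc genes Myc, Mycn and Mycl1, the shared partner Max, the antagonists Mxd1, Mxd3, Mxd4, Mxi1 and Mnt, and Mga. RNA-seq was performed on HG165, a single androgenetic haESC line derived from C57BL/6 mice, meaning that its only genome is paternal. The 4 samples were 2 treated with the solvent DMSO and 2 treated with RDF, a mixture of 3 small molecules, namely Repsox, which blocks TGF-β signalling, DMH1, which blocks BMP4 signalling, and Forskolin, which activates adenylate cyclase. Neither the doses nor the duration of treatment of these samples, nor any sorting for haploid cells before RNA extraction, is given in the sources used here, and the share of cells that had become diploid was not measured here. The labels describe culture on feeder cells in serum and LIF. The study's methods also describe haESC culture on feeders in general. They add that most experiments were done without feeders, and the exceptions they name do not include RNA-seq. The comparison asks how RDF altered transcript levels relative to DMSO.

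Myc, Mycn and Mycl1 encode transcription factors of the basic helix-loop-helix leucine zipper class, which bind DNA only as dimers with Max. The dimers recognize the E-box, CACGTG, and activate genes for ribosome production, metabolism and growth. The Mxd proteins, Mxi1 and Mnt compete for Max and recruit Sin3 and histone deacetylases to the same sites, and Mga brings Max into a Polycomb complex, PRC1.6, that represses germline genes in ES cells. In mouse ES cells Myc and Mycn are known to sustain self-renewal and can largely replace one another, and loss of both places the cells in a dormant state.

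To show the sequence in front of the genes that changed, the promoters of Mycn, Mxd1, Mnt and Mga are given below, as these 4 passed the test. Each window runs from 250 bases before to 50 bases after a RefSeq start site (table build GRCm38.p6) and was found exactly once on its chromosome in build NCBIM37, the assembly mm9 that the files use. The Mycn window is chr12:12948593-12948892 on the minus strand, that of Mxd1 is chr6:86619104-86619403 on the minus strand, that of Mnt is chr11:74644176-74644475 on the plus strand and that of Mga is chr2:119722714-119723013 on the plus strand. Capitals mark E-boxes (CACGTG), the core of the cAMP response element (TGACG) and E2F sites (TTTGGCGC or TTTCGCGC), searched on both strands.
Mycn: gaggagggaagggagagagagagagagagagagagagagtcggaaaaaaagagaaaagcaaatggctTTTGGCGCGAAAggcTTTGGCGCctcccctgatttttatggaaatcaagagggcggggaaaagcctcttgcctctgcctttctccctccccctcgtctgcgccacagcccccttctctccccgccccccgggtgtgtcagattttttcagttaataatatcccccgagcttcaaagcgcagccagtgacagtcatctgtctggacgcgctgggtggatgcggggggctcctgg
Mxd1: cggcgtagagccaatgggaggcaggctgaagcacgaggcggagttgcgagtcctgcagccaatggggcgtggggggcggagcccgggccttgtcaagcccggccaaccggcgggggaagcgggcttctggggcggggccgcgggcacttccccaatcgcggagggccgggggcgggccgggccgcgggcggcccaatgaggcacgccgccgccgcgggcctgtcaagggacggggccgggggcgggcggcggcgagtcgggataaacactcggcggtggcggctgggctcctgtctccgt
Mnt: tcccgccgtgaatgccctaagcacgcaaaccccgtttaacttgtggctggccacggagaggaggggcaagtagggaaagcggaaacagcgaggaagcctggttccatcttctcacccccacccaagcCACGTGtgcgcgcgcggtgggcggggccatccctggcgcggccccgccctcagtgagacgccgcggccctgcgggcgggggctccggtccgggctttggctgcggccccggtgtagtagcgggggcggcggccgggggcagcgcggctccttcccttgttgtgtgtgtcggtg
Mga: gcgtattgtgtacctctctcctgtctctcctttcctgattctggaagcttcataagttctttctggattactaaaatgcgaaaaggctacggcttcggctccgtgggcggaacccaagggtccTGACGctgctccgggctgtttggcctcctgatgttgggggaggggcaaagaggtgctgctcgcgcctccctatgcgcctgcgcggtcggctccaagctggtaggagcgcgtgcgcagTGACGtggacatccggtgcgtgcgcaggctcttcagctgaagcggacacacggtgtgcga

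The Mycn window held 3 E2F matches, which begin at positions -183, -179 and -168 relative to the start site, the first pair of them overlapping. E2F matches were present in 0.929% of the 27025 symbols with a window. The Mnt window held 1 E-box, at position -123, and E-boxes were also found in the windows of Max and Mxd4. In all, 3 of the 9 members with a window had an E-box, against 8.09% of all symbols. The Mga window held 2 cores of the cAMP response element, a motif found in 23% of symbols. The full element, TGACGTCA, was in no member's window and in 2.03% of symbols, and the Mxd1 window matched none of the motifs. Windows were matched by symbol (Mycl for Mycl1) and Myc had no entry. The motifs were chosen with the sequences in view, and a match describes letters, not binding.

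RDF raised Mycn by a ratio of 2.13 between the group means, and raised Mxd1, Mnt and Mga by smaller amounts, whereas Myc, Max, Mycl1, Mxd3, Mxd4 and Mxi1 did not pass the test. Expression was given as FPKM, in which fragments are scaled to transcript length and to the mapped fragments of the sample, so that levels of different genes can be compared per length. Log2 fold changes are differences in mean log2(FPKM + 1), RDF minus DMSO, and limma was run over 11733 genes whose mean reached 1 FPKM, with Benjamini-Hochberg adjustment and a threshold of 0.05. All 10 members passed this filter on their mean. Of them, 4 were called higher (40%) and 0 lower. Over all genes tested, 13.3% were called higher and 8.28% lower, 21.6% in all. Without RDF replicate 1 limma called 3 members higher (Mxd1 was lost) beside 3.05% of all genes, and without RDF replicate 2 it called Mycn alone beside 2.16%. At an unadjusted limma p under 0.05, 7 members were higher and 0 were lower, beside 2637 higher and 1816 lower of the 11733 genes tested. The median log2 fold change was 0.30 over the members and 0.03 over all genes tested. In these bulk samples fewer cells of a type and less RNA per cell cannot be told apart.

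**Figure D1:**
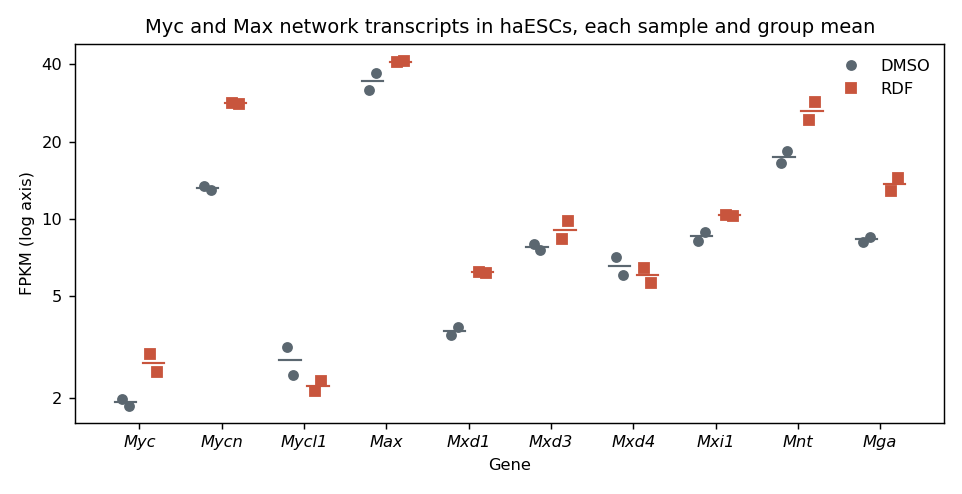
FPKM of the 10 members on a log axis in each DMSO sample (circles) and RDF sample (squares), with short lines at the mean of the 2 samples of a group. Mycn moved from between 12.9 and 13.5 to between 27.9 and 28.4 FPKM, and the groups overlap only for Mxd4. Of all genes tested, 37.1% had both RDF samples above both DMSO samples and 28.5% both below.

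Among the Myc genes, Mycn was the most abundant in every sample. Mycn, on chromosome 12 from 12942902 to 12948720 (ENSMUSG00000037169.8), stood at 13.5 and 12.9 FPKM with DMSO and at 28.4 and 27.9 FPKM with RDF. The replicates of a group lay close together, and both RDF values were above both DMSO values. The means were 13.2 ± 0.361 and 28.1 ± 0.328 FPKM (SD, n = 2 each), a ratio of 2.13, and the log2 fold change was 1.04 with a standard error of 0.0612 (limma adjusted p = 0.000678). This change exceeded that of 99.5% of the genes tested, and Mycn was the only member whose log2 fold change was over 1, a size reached by 0.631% of genes in the upward direction. Over the 11 alternative settings it stayed between 1.00 and 1.09 and past the threshold in each.

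Myc itself was the scarcest member in DMSO. It had 1.99 and 1.88 FPKM in DMSO and 2.98 and 2.52 FPKM in RDF. Both RDF values were higher, and the RDF samples were further apart than the DMSO samples. The ratio of the means was 1.42, and the log2 fold change of 0.35 (95% interval 0.08 to 0.62, limma adjusted p = 0.0696) missed the threshold, with 45.2 to 86.1 fragments estimated behind each value. Mycl1, a Myc gene of narrower expression in development, went the other way, from 3.18 and 2.47 FPKM in DMSO to 2.13 and 2.33 FPKM in RDF. Its groups did not overlap, and its log2 fold change was -0.24 (95% interval -0.54 to 0.06, limma adjusted p = 0.215). Among all genes tested, 37.1% had both RDF samples above both DMSO samples and 28.5% had both below, so such a separation is common in these data.

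The make-up of the Myc genes therefore shifted further towards Mycn. Mycn held 72.2% and 74.9% of the summed FPKM of Myc, Mycn and Mycl1 in DMSO and 84.7% and 85.2% in RDF. The share of Mycl1 was 17.1% and 14.3% in DMSO against 6.36% and 7.10% in RDF. For Myc the shares were 10.7% and 10.8% in DMSO and 8.91% and 7.71% in RDF, although its own level was not lower. The ratio of Mycn to Myc was 6.75 and 6.90 in DMSO and 9.51 and 11.1 in RDF. Summed over the 3 genes, the level was 18.6 and 17.3 FPKM in DMSO and 33.5 and 32.8 FPKM in RDF. With 2 samples against 2 the smallest two-sided p of an exact permutation test is 0.333, and these shares and ratios were not tested.

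Max was the most abundant member in both groups. Max, the obligate partner of every Myc protein, had 31.8 and 36.9 FPKM in DMSO and 40.8 and 41.1 FPKM in RDF. The DMSO samples were further apart than the RDF samples, and the groups did not overlap. Its log2 fold change was 0.25 (95% interval 0.06 to 0.45), with a limma adjusted p of 0.0718. The side of the threshold depended on 1 library, as without DMSO replicate 1 the change was 0.15 (limma adjusted p = 0.223) and without DMSO replicate 2 it was 0.36 (limma adjusted p = 0.0262). Max transcripts stood at 1.71 and 2.13 times the summed Myc genes in DMSO and at 1.22 and 1.25 times in RDF.

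**Figure D2:**
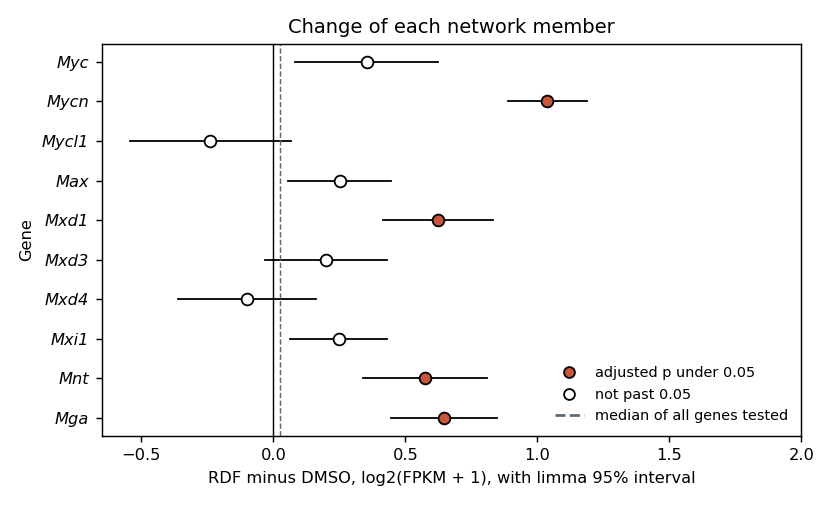
Change of each member from DMSO to RDF on the log2(FPKM + 1) scale (points) with its 95% interval from limma (lines). Filled points are the 4 members with an adjusted p under 0.05, and the dashed line is the median of all genes tested, 0.03.

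Of the 5 antagonists, Mxd1 and Mnt rose and Mxd3, Mxd4 and Mxi1 did not pass the test. Mxd1, whose protein is known for its induction when cells differentiate, lies on chromosome 6 from 86597038 to 86619153 (ENSMUSG00000001156.7) and had 3.54 and 3.79 FPKM in DMSO against 6.21 and 6.18 FPKM in RDF. The RDF samples were nearly equal, and both exceeded the DMSO samples by more than the replicates differed. The means were 3.67 ± 0.175 and 6.19 ± 0.0245 FPKM (SD, n = 2 each), and the log2 fold change was 0.62 (standard error 0.0856, limma adjusted p = 0.00666). Its size hardly moved without RDF replicate 1 or 2 (0.62 and 0.63), but the limma adjusted p was then 0.0575 and 0.0601.

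Mnt, the antagonist found in proliferating as well as resting cells, was the most abundant of the 5. It lies on chromosome 11 from 74644422 to 74659227 (ENSMUSG00000000282.6) and had 16.5 and 18.3 FPKM in DMSO and 24.2 and 28.6 FPKM in RDF. The RDF samples differed from each other by more than the DMSO samples did, and the groups did not overlap. With means of 17.4 ± 1.29 and 26.4 ± 3.08 FPKM (SD, n = 2 each), its log2 fold change was 0.57 (standard error 0.0966, limma adjusted p = 0.0118). Without RDF replicate 2 the change was 0.46 and the limma adjusted p 0.0754.

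Mxi1, also known as Mxd2, had 8.23 and 8.90 FPKM in DMSO and 10.4 and 10.3 FPKM in RDF, a log2 fold change of 0.25 (95% interval 0.06 to 0.43, limma adjusted p = 0.0650). Mxd3, which is expressed in S phase, had 7.95 and 7.55 FPKM in DMSO and 8.35 and 9.80 FPKM in RDF. Its log2 fold change of 0.20 (95% interval -0.03 to 0.43, limma adjusted p = 0.182) is comparable to the distance between its RDF samples. Mxd4 was the only member whose groups overlapped, with 7.09 and 6.03 FPKM in DMSO and 6.45 and 5.65 FPKM in RDF (log2 fold change -0.10, 95% interval -0.36 to 0.16, limma adjusted p = 0.532). Mxd3 overlaps Prelid1 on the opposite strand and Mxi1 overlaps Gm10197 on the opposite strand. The libraries were stranded, but whether strand was used in estimating FPKM is not given in the sources used here.

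The summed level of the Mxd genes, Mxi1 and Mnt was 43.3 and 44.6 FPKM in DMSO and 55.6 and 60.5 FPKM in RDF. Mnt made up 38.0% and 41.1% of this sum in DMSO and 43.6% and 47.2% in RDF. The ratio of the summed Myc genes to the summed antagonists was 0.430 and 0.388 in DMSO and 0.602 and 0.541 in RDF, so antagonist transcripts outnumbered Myc transcripts per length in every sample and did so by less in RDF. The change in this ratio was not tested.

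**Figure D3:**
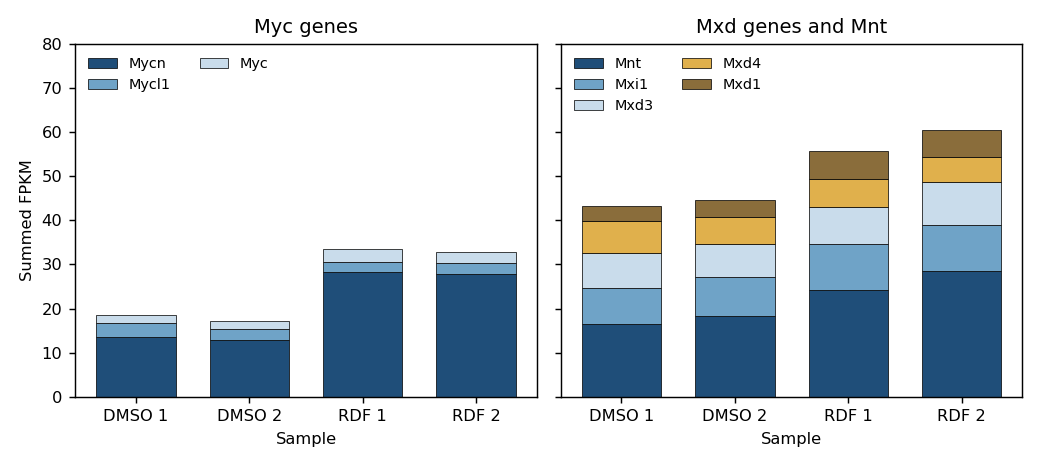
Summed FPKM of the Myc genes (left) and of the Mxd genes, Mxi1 and Mnt (right) in each of the 4 samples, stacked by gene. Mycn accounts for 72.2% to 85.2% of the left bars, and the right bars rise from between 43.3 and 44.6 to between 55.6 and 60.5 FPKM.

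Mga, which carries a T-box domain beside the domain that pairs with Max, rose. It lies on chromosome 2 from 119722964 to 119795317 (ENSMUSG00000033943.9) and had 8.16 and 8.51 FPKM in DMSO and 12.8 and 14.4 FPKM in RDF. The groups were well apart relative to the distance between replicates. The means were 8.34 ± 0.247 and 13.6 ± 1.14 FPKM (SD, n = 2 each) and the log2 fold change 0.65 (standard error 0.0829, limma adjusted p = 0.00555), which without RDF replicate 2 was 0.57 (limma adjusted p = 0.0527).

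In DMSO the order from highest to lowest was Max, Mnt, Mycn, Mxi1, Mga, Mxd3, Mxd4, Mxd1, Mycl1 and Myc, and of neighbours in this order only the samples of Mxi1 and Mga overlapped. In RDF it was Max, Mycn, Mnt, Mga, Mxi1, Mxd3, Mxd1, Mxd4, Myc and Mycl1, with overlap between Mycn and Mnt and between Mxd1 and Mxd4. Mycn thus stood below Mnt in both DMSO samples and level with it in RDF, with Mnt at 1.22 and 1.41 times Mycn in DMSO and at 0.854 and 1.02 times in RDF. Myc and Mycl1 exchanged the last places.

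The depth of the samples was not stored in FPKM and was estimated from the steps of low values at between 9700000 and 12300000 fragments. The estimate is rough, since only 43.5% to 48% of the low values used came within 0.1 of a whole fragment. On that estimate the lowest value behind a member's level was 45.2 fragments for Myc, 91.4 for Mycl1 and 134 for Mxd3, and at least 160 for the others. The counting error alone would then be 14.9% for the lowest Myc value and 10.5% for that of Mycl1, against 5.36% for Mycn and 3.01% for Mga. All 9 markers of ES cells were detected in every sample, and limma called 3 higher and 4 lower. Their summed level was 7776 to 7838 FPKM in DMSO and 4594 to 5063 FPKM in RDF, most of it from Dppa5a. Log2 fold changes were -0.86 for Dppa5a, -0.80 for Utf1, -0.70 for Tdgf1 and -0.35 for Pou5f1, the gene of Oct4, and those of Zfp42, Sall4 and Sox2 were 0.85, 0.68 and 0.26. Nanog and Esrrb did not pass the test. Of 10 fibroblast markers, which would reveal feeder cells, 6 could be tested, and 4 fell and 1 rose, their summed level being 37.0 to 38.1 FPKM in DMSO and 23.6 to 25.8 FPKM in RDF. None was at 0. Col1a1 fell with a log2 fold change of -1.76 (limma adjusted p = 0.000577) and Dcn rose with 1.65 (limma adjusted p = 0.00112). Primitive endoderm markers summed to 5.95 to 7.44 FPKM in DMSO and 9.87 to 10.5 FPKM in RDF, and trophoblast markers to 7.12 to 8.24 and 11.4 to 12.1 FPKM. Of the 6 primitive endoderm markers 1 of 2 tested rose, Gata6, and of the 4 trophoblast markers 1 of 2 tested rose, Hand1. Germ cell markers summed to 72.9 to 75.5 FPKM in DMSO and 69.8 to 71.2 FPKM in RDF, and of 3 tested limma called 0, with 0 higher and 1 lower at an unadjusted p under 0.05. Only Elf5 was listed at 0, in DMSO replicate 2. The part of these cells in the changes of the members was not tested.

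The known machinery around the network was described with lists of genes. For comparison with the counts of these lists, limma called 13.3% of all 11733 genes tested higher and 8.28% lower. At an unadjusted limma p under 0.05, 2637 of them were higher and 1816 lower. The Mlx branch, a parallel set of dimers that senses glucose metabolites, did not pass the test, with a log2 fold change of -0.08 for Mlx (limma adjusted p = 0.528) and 0.08 for Mlxip (limma adjusted p = 0.481). Mlx changed sign, to 0.02, without RDF replicate 1. Mlxipl did not reach the filter and had 0.380 and 0.401 FPKM in DMSO and 0.975 and 0.726 FPKM in RDF. Of the 9 subunits of the Sin3 corepressor that the antagonists recruit, 1 rose (11.1%) and 0 fell. At an unadjusted limma p under 0.05, 3 were higher and 1 lower. The gene that rose was Sap30, which had 84.9 and 76.6 FPKM in DMSO and 105 and 97.3 FPKM in RDF (log2 fold change 0.32, limma adjusted p = 0.0271). It lost the call with no filter (limma adjusted p = 0.0653) and in the fit without a trend (limma adjusted p = 0.0595). The call was also lost without DMSO replicate 2 or either RDF replicate. With a sample left out the change of Sap30 ranged from 0.25 to 0.40. Among 11 cofactors of Myc, such as Trrap and Kat5 of the acetyltransferase complexes, 0 were called by limma in either direction, and 1 was higher and 1 lower at an unadjusted p under 0.05. Among 9 genes that control Myc protein turnover, such as the ubiquitin ligase gene Fbxw7, 0 were called by limma, with 1 higher and 0 lower at an unadjusted p under 0.05. The transcripts measured here do not give protein levels.

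Of 9 other genes of the Mga complex, 0 rose and 1 fell (11.1%), beside 13.3% higher and 8.28% lower of all genes tested. The gene that fell was L3mbtl2, which encodes another core subunit of PRC1.6. L3mbtl2 had 36.9 and 37.3 FPKM in DMSO and 28.8 and 27.2 FPKM in RDF, a log2 fold change of -0.39 (limma adjusted p = 0.00843). It therefore moved in the direction opposite to Mga, and without RDF replicate 2 its limma adjusted p was 0.0694. At an unadjusted limma p under 0.05, 2 genes of this list were higher and 1 was lower. Of 12 germline genes that Max, Mga and PRC1.6 are known to hold down in ES cells, 11 could be tested. Limma called 0 in either direction, with 1 higher and 1 lower at an unadjusted p under 0.05. Their median log2 fold change was -0.03. The 12 genes were not uniformly silent here. Their means ran from 0.663 (Tdrd1) to 48.8 FPKM (Taf7l) in DMSO and from 0.538 (Tdrd1) to 49.4 FPKM (Sycp3) in RDF. An unchanged level is therefore no sign of repression, which was not tested.

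Of 42 genes that Myc proteins are known to induce, 2 were called higher and 10 lower, and their median log2 fold change was -0.08 against 0.03 over all genes tested. Thus 4.76% were higher and 23.8% lower, beside 13.3% and 8.28% of all genes tested. Without RDF replicate 1 or RDF replicate 2 limma called 0 of the 42 in either direction, when it called 358 and 253 genes higher and 235 and 195 lower over all genes tested. Without DMSO replicate 1 or 2, 7 of the 42 were lower in each case. With no filter on low values 5 of the 42 were lower, beside 606 of all 18012 genes then tested. With median-ratio scaling 12 of the 42 were lower, beside 1179 of all 11733 genes tested.

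Among 17 of these genes for ribosome production, 1 rose (5.88%) and 3 fell (17.6%), beside 13.3% higher and 8.28% lower of all genes tested. Ubtf, which encodes a factor for transcription of ribosomal RNA genes by RNA polymerase I, had 29.7 and 29.1 FPKM in DMSO and 38.7 and 38.5 FPKM in RDF (log2 fold change 0.38, limma adjusted p = 0.00760). Bop1 and Nolc1, which act in nucleolar assembly of the ribosome, each changed by -0.31 on the log2 scale (limma adjusted p = 0.0187 and 0.0124). Pa2g4 fell by 0.20 (limma adjusted p = 0.0451), a call lost with quantile normalization (limma adjusted p = 0.0777) and with any 1 of the 4 samples left out (limma adjusted p 0.0681 to 0.194). Nucleolin, encoded by Ncl and a classical Myc target, had 205 and 225 FPKM in DMSO and 216 and 224 FPKM in RDF, with overlapping groups.

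Among 15 genes of metabolism, 0 rose and 5 fell (33.3%) by limma, beside 13.3% higher and 8.28% lower of all genes tested. At an unadjusted limma p under 0.05 the counts were also 0 and 5. With no filter 3 were called lower, and without a trend in the fit also 3. Srm, which encodes spermidine synthase, had 209 and 167 FPKM in DMSO and 141 and 126 FPKM in RDF (log2 fold change -0.49, limma adjusted p = 0.0322). Odc1, the rate-limiting enzyme of polyamine synthesis, had 482 and 447 FPKM in DMSO and 355 and 348 FPKM in RDF (log2 fold change -0.40, limma adjusted p = 0.00971). Both enzymes act in polyamine synthesis. The other 3, named after their values were seen, were the nucleotide synthesis genes Gart (-0.38), Cad (-0.30) and Nme1 (-0.29), with limma adjusted p between 0.00789 and 0.0320. Nme1 has a close paralog, Nme2, and how fragments shared by such pairs were divided is not given in the sources used here. Without a trend in the fit the limma adjusted p was 0.0603 for Srm and 0.0680 for Nme1. With no filter it was 0.0893 for Srm and 0.0717 for Nme1, and with quantile normalization 0.0527 for Srm. With a sample left out the log2 fold change ranged from -0.65 to -0.33 for Srm and from -0.38 to -0.21 for Nme1.

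Among 10 genes of growth and cell cycle, 1 rose (10%) and 2 fell (20%), beside 13.3% higher and 8.28% lower of all genes tested. E2f1, a transcription factor of S phase entry, had 29.3 and 27.1 FPKM in DMSO and 39.8 and 38.5 FPKM in RDF (log2 fold change 0.46, limma adjusted p = 0.00684). Ccnd2, the gene of cyclin D2, had 5.11 and 5.43 FPKM in DMSO and 3.63 and 3.57 FPKM in RDF (log2 fold change -0.45, limma adjusted p = 0.0184), and Phb changed by -0.25 (limma adjusted p = 0.0309). Of 7 genes that Myc represses, 2 rose and 2 fell (28.6% each), beside the same 13.3% and 8.28% of all genes tested. Those that rose were Ndrg1 (0.26) and Cdkn1b, the gene of the kinase inhibitor p27 (0.24), with limma adjusted p of 0.0284 and 0.0344. Clu (-0.49) and Gadd45a (-0.32) fell, with limma adjusted p of 0.00923 and 0.0211. With no filter, 0 of the 7 were called higher and 1 lower, beside 942 and 606 of all 18012 genes then tested. In the fit without a trend, 0 were higher and 2 lower, beside 1428 and 768 of all 11733 genes. Without RDF replicate 1, limma called 0 of these 7 genes in either direction, and without RDF replicate 2 it called 0 higher and 1 lower. Without DMSO replicate 1 it called 1 higher and 1 lower, and without DMSO replicate 2 it called 0 higher and 3 lower.

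**Figure D4:**
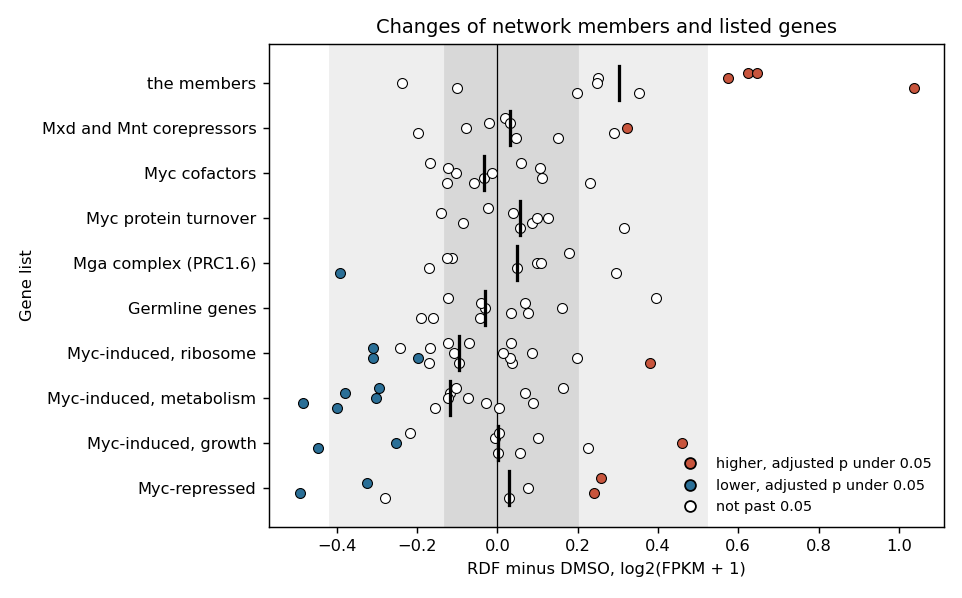
Change from DMSO to RDF on the log2(FPKM + 1) scale for each tested gene of the members and of the lists, 1 point a gene, with the median of each list as a thick line. The dark and light bands hold the middle of all genes tested, from percentile 25 to 75 and from percentile 5 to 95, and the Myc-induced lists have 10 filled points below 0 and 2 above.

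E-boxes were found in the promoter windows of 9 of the 36 Myc-induced genes with a window (25%), against 8.09% of all symbols. The higher share was not particular to the E-box. Cores of the cAMP response element were in 58.3% of the 36 genes, against 23% of all symbols. E2F matches were in 5.56%, against 0.929%. Of the Myc-induced genes that fell, 7 had a window and 2 of these held an E-box, Nme1 and Phb. Both genes that rose had a window, and 0 of these held an E-box. Of the Myc-induced genes not called, 27 had a window and 7 of these held an E-box.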

How the data were processed

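The members, the gene lists and the tests were chosen with earlier results of these data known, so no list is independent evidence of its own change. Total RNA (150 ng) was made into stranded mRNA libraries. Per the labels' processing notes, the authors used TopHat2 2.0.14, Bowtie2 2.1.0 and Cufflinks 2.2.1 on build mm9, and deposited FPKM for 23235 symbols in each of 4 samples, of which 5223 were at 0 in all. Program settings and any further scaling are not given in the sources used here.

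From these values, log2(FPKM + 1) was compared between the 2 RDF and the 2 DMSO samples with limma 3.58.1 in R 4.3.3 (lmFit, eBayes with a mean-variance trend, two-sided, no block for the replicate number) over the 11733 genes whose mean reached 1 FPKM, with Benjamini-Hochberg adjustment. The pseudocount understates the change of low genes such as Myc. Nothing in the sources says that replicates came from separate cultures, so the spread between them may be technical. Each limma p sets the difference between groups against that spread, drawn towards the spread of genes of similar level. The p-values may therefore leave out variation between cultures. All 10 members were named, and in each list the called genes with the 2 largest rises and the 2 largest falls. Genes of the Mlx branch were named whatever their call. Outside this rule, values were also given for several cell markers, for Pa2g4, Gart, Cad and Nme1, which were called with smaller falls, and for Ncl, which was not called. Of the 3 genes nearest to Mycn over the samples, 1 is not reported here. Fragment numbers used transcripts of 1 isoform and at least 1500 nucleotides to find the depth, and then the longest annotated transcript of each member, so they are approximate and cover counting error only. Positions came from GENCODE vM1 on NCBIM37 and promoters from RefSeq. Alternatives were another pseudocount (0.1), no filter or a filter of 5 FPKM, median-ratio and quantile scaling, a fit without the trend, a replicate block, and each sample left out.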

Additional observations from a re-analysis of the deposited data

How the results depend on the processing

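For the 10 members, 107 alternative values were computed over 11 settings, and 99 kept their direction and their side of the threshold. Of the others 4 lost the call, 3 gained it and 1 changed sign. The change of Mxd4, not called, ranged from -0.20 to 0.0017 with a sample left out, the latter without DMSO replicate 1. Myc passed the threshold in the fit without a trend (limma adjusted p = 0.0491). The number of members called higher was 4, and with each sample left out it lay between 1 and 5, the lowest without RDF replicate 2, where Mycn alone was called. Leaving out an RDF sample also cut the calls over all genes tested, to 358 and 253 higher. The number of members called lower was 0 throughout. With the filter at 5 FPKM, Myc, Mycl1 and Mxd1 were not tested. Median-ratio scaling moved the median change of all genes tested from 0.03 to -0.0036.

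Of the 100 other pathway genes tested, 42 were the Myc-induced genes, with 2 called higher and 10 lower. Over the 100, 5 were called higher and 13 lower, beside 13.3% and 8.28% of all genes tested. With no filter, where 942 of all 18012 genes were higher and 606 lower, these counts of pathway genes were 2 and 7. Without the trend, where 1428 of all 11733 genes were higher and 768 lower, they were 3 and 9. With a sample left out they ranged from 0 to 4 higher and from 1 to 11 lower. The listed gene Mlx, not called, ranged from -0.18 to 0.022 with a sample left out, the latter without RDF replicate 1. Over 25 other genes of the lists and comparisons, 207 of 272 alternative values kept their direction and side of the threshold and 64 lost the call.

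The replicate numbers were tried as a replicate block. Nothing in the labels says that samples of the same number were handled together, and deviations from the group means, compared across genes between samples of one number, gave Pearson's r = 0.134 and Spearman's rho = 0.114. With the replicate block 5 members were called higher, as Max was added (limma adjusted p = 0.0494), 0 were lower, and of the other pathway genes 6 were higher and 14 lower. No other member changed its call.

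Depth limits Myc most, with 45.2 to 86.1 fragments estimated behind its values.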

Other observations

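Among the genes whose log2(FPKM + 1) values, centred over the 4 samples, lay nearest to those of Mycn were Zic2 and Dusp5, at Euclidean distances of 0.0189 and 0.0603. Zic2, a zinc finger transcription factor of neural development, had 7.01 and 6.62 FPKM in DMSO and 15.2 and 14.8 FPKM in RDF. Dusp5, a nuclear phosphatase that inactivates ERK, had 21.9 and 21.9 FPKM in DMSO and 45.4 and 43.8 FPKM in RDF. As the distance rests on only 4 samples in 2 groups, it describes a similar step from DMSO to RDF and nothing further.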
